A study of Mus musculus with 2 samples.

Results

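The genes described here encode the proteins of the cytoplasmic ribosome. They were taken by symbol: every name of the form *Rps* or *Rpl* and a number (with a final a, x, l or y where there is one), the stalk genes *Rplp0* to *Rplp2*, and *Rpsa*. Of 23951 symbols found in both libraries, 84 met this rule, with 33 genes of the small (40S) and 51 of the large (60S) subunit. RNA was sequenced from optic nerves at P12 in 1 library of control mice (Tcf7l2 c/+ with OLig1-cre) and in 1 library of mutant mice (Tcf7l2 c/c with OLig1-cre), called *Tcf7l2*ΔHMG. Both genotypes carried the Cre, which is expressed in the oligodendrocyte lineage, while the libraries hold RNA of the whole nerve, and the control had 1 floxed allele. The recombined allele loses the exon of the DNA-binding HMG box in frame and can still be transcribed, so the level of *Tcf7l2* (17.8 FPKM in control, 14.6 FPKM in mutant nerves) does not check the deletion. The number of animals behind each library is not given in the sources used here, and with 1 library per genotype no difference has a replicate check and none was tested.

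Most ribosomal proteins are built in equal numbers into a particle of which each cell needs very many, and their mRNAs are among the most abundant of any tissue. Their mRNAs start with a cytidine followed by a run of pyrimidines, the 5′ terminal oligopyrimidine (TOP) tract, through which their translation follows growth signals. Many of their introns hold small nucleolar RNAs (snoRNAs), which guide the modification of ribosomal RNA. In the oligodendrocyte lineage, translation supplies the proteins of the myelin sheath.

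The start sites were searched for this tract in the reference sequence. RefSeq promoters (GRCm38.p6, 250 bases before to 50 after the annotated start) matched 63 of the 84 genes by symbol. A C followed by at least 4 bases that were each C or T, read on the strand of the gene, began within 2 bases of the start in 21 of the 63 genes (33.3%), against 10.6% of all 27025 genes with a promoter. The share was the same in both subunits, with 8 of 24 small and 13 of 39 large subunit genes. The following windows of 30 bases, 10 before the start and 20 from it, are shown for genes that the values below return to, with the tract in capitals.
Rpl28 (chr7:4792955-4792984, plus strand): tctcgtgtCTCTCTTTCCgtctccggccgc
Rpl27a (chr7:109519185-109519214, plus strand): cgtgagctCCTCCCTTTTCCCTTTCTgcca
Rpl35 (chr2:39005112-39005141, minus strand): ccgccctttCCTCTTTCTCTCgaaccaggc
Rpl38 (chr11:114668570-114668599, plus strand): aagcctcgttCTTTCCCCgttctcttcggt
Rplp2 (chr7:141447641-141447670, plus strand): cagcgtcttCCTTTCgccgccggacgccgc
Rps27 (chr3:90213629-90213658, minus strand): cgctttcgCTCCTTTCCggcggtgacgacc
Rps21 (chr2:180257369-180257398, plus strand): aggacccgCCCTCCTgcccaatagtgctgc
Rps6 (chr4:86857348-86857377, minus strand): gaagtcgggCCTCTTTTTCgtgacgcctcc
The 8 windows share the run of C and T at or next to the start and little else. Within 25 bases of the start, 51 of the 63 genes (81.0%) held such a tract, against 56.8% of all genes. The limit of 2 bases was chosen after the data were seen.

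Over named rows, the 84 genes made up 9.27% of the control FPKM and 10.3% of the mutant FPKM. FPKM scales the fragments of a gene to its transcript length and to the depth of the library, and lets genes be compared with each other. From the interval bounds of short unnamed rows, the depth was 27624000 fragments for the control and 39938000 for the mutant. Ratios are given as log2 of (mutant FPKM + 0.1) over (control FPKM + 0.1), for the 14199 genes that reached an FPKM of 1 in the control, the mutant or both. Of the 84 genes, 81 passed this filter, and the other 3 were *Rpl10l* (0.0442 FPKM in the control, listed at 0 in the mutant), *Rpl39l* (0.301 and 0.625 FPKM) and *Rpl3l* (0.124 and 0.0900 FPKM), copies known mainly from testis or muscle.

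The 81 genes ranged from 13.1 to 1766 FPKM in the control, with a median of 474, and from 21.4 to 2642 FPKM in the mutant, with a median of 532. *Rpl41*, which encodes a very short basic peptide, had the highest FPKM in both libraries (1766 FPKM, and 2642 in the mutant). It was followed in the large subunit by *Rplp1* of the stalk (1308 and 1541 FPKM), *Rpl38* (1030 and 1142 FPKM) and *Rpl23a* (861 and 1272 FPKM). In the small subunit the highest levels were those of *Rps29* (845 and 1182 FPKM), *Rps27* (866 and 1135 FPKM), *Rps28* (764 and 1142 FPKM) and *Rps12* (895 and 983 FPKM). For *Rpl41*, *Rplp1*, *Rpl23a*, *Rps28* and *Rps29* the FPKM lay above the confidence interval of its own row in both libraries. By interval midpoints, *Rpl41* was below *Rpl38* in the control (973 and 1032) and above it in the mutant (1451 and 1145). *Rps28* (298 in control, 443 in mutant) and *Rps29* (410, 570) were then below *Rps12* (902, 994) and *Rps27* (872, 1145). The lowest levels belonged to *Rps4l* (13.1 and 21.4 FPKM), *Rpl7l1* (21.9 and 24.2 FPKM), *Rps15a* (28.4 and 24.5 FPKM), *Rpl22* (76.1 and 70.3 FPKM), *Rpl22l1* and *Rps27l*. Of these 6 genes, 4 are paralogs of another ribosomal protein gene. The order of levels was much the same in both libraries (Spearman rho 0.88 over the 81 genes, which share the libraries and their lengths).

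**Figure D1:**
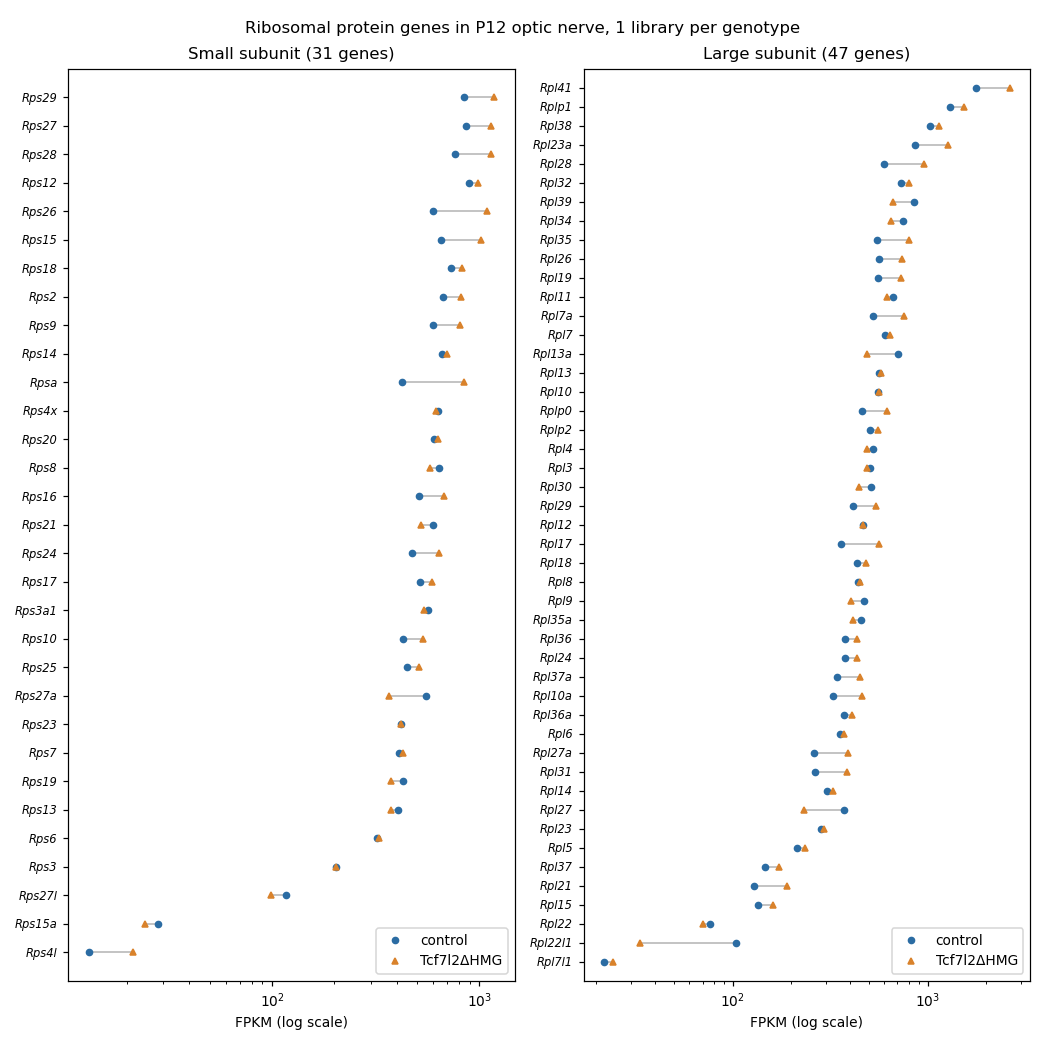
FPKM (log scale) of 31 small and 47 large subunit genes that passed the filter, with the control library as circles and the mutant library as triangles joined by a line. Most genes lie between 100 and 2642 FPKM, and *Rpl22l1* has the widest gap. As deposited, 55 triangles stand to the right of their circle, a majority that rests on the scale. The median log2 ratio is 0.15, 0.08 with only named rows brought to a common sum, but −0.52 with all rows brought to it.

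As deposited, though not with all rows of each library brought to a common sum, most ribosomal protein genes had a somewhat higher FPKM in the mutant. Of the 81 genes, 58 (71.6%) had a log2 ratio above 0 and 23 had one below 0, against 54.6% above 0 among all 14199 genes and 51.7% among the 770 genes with a mean FPKM of at least 100. The median ratio was 0.15 (quartiles −0.03 and 0.42), beside 0.05 for all genes and 0.02 for the 770 abundant genes. The sign of this median depends on the scale: when all rows of each library were brought to a common sum of 1000000, the median was −0.52 for the ribosomal protein genes and −0.61 for all genes. Relative to the median of all genes, the ribosomal protein genes stood 0.10 higher as deposited and 0.08 higher on that scale. Their median stayed above 0 with only named rows brought to a common sum (0.08) and with scaling to the 75th percentile (0.10). The spread of the ratios as deposited was narrow, with the 5th and 95th percentiles at −0.36 and 0.69 for the ribosomal protein genes and at −0.83 and 1.18 for all genes. In a bulk library, fewer cells of a type and less RNA per cell cannot be told apart.

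As deposited, changes past 1.5-fold were rarer than among all genes in both directions. On the deposited scale, 7 of the 81 genes (8.64%) were higher past 1.5-fold in the mutant, beside 15.4% of all genes and 14.3% of the abundant genes. Past the same fold, 3 genes (3.70%) were lower, beside 8.52% of all genes and 9.09% of the abundant genes. The remaining 71 ribosomal protein genes stayed within 1.5-fold. With all rows brought to a common sum, 0 ribosomal protein genes were higher past 1.5-fold, beside 4.51% of all genes and 4.55% of the abundant genes, and 34 (42%) were lower, beside 52.1% and 55.5%. The shares of ribosomal protein genes were thus below those of all genes on this scale as well.

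**Figure D2:**
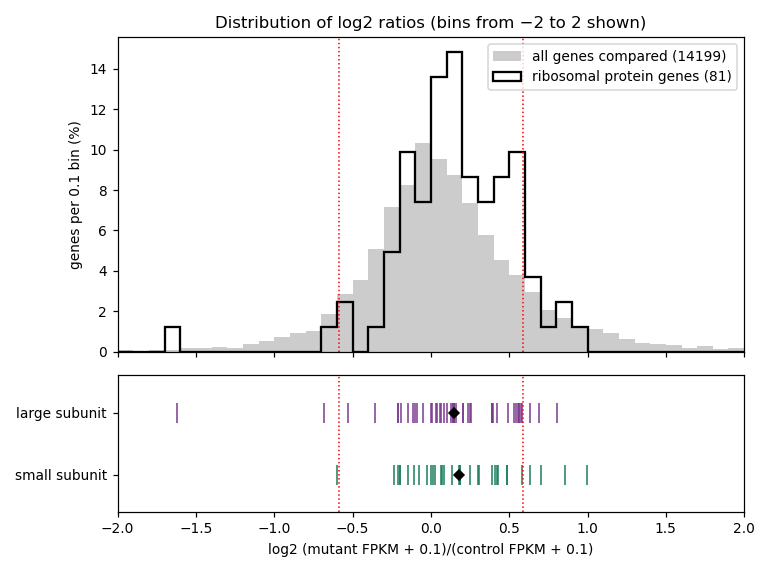
Top, share of genes (%) per bin of 0.1 in the log2 ratio of mutant over control FPKM for all 14199 genes (grey) and the 81 ribosomal protein genes (outline). Bottom, each small and large subunit gene as a tick with the median as a diamond, at 0.18 and 0.15 as deposited and at −0.49 and −0.52 with all rows brought to a common sum. Dotted lines mark 1.5-fold in either direction.

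The subunits were close to each other. The 33 small subunit genes had a median log2 ratio of 0.18, with 23 above 0, and the 48 large subunit genes had 0.15, with 35 above 0, a difference of 0.03. Median levels of the small subunit were 555 (control) and 618 FPKM (mutant), and those of the large subunit 459 and 476 FPKM. Summed over its genes, the small subunit was higher in the mutant by 0.25 and the large subunit by 0.21 on the log2 scale as deposited (the sum of both was at −0.45 with all rows brought to a common sum). Past 1.5-fold, 4 small subunit genes (12.1%) were higher and 1 (3.03%) was lower. In the large subunit, 3 genes (6.25%) were higher and 2 (4.17%) were lower. Among all genes, 15.4% were higher and 8.52% lower past this fold. The genes of both subunits come from the same pair of libraries and are not replicates.

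*Rpl22l1*, the paralog of *Rpl22*, had the widest difference of all 81 genes and was the only one past 2-fold. Its level was 103.6 FPKM in the control (Cufflinks confidence interval 95.5 to 112) and 33.6 FPKM in the mutant (28.7 to 38.9), a log2 ratio of −1.62. Its position in the files was chr3:28704433-28706337, in the build that the submitters name as mm9. *Rpl22* itself, an RNA-binding protein of the large subunit near the tunnel exit, was at 76.1 and 70.3 FPKM (log2 ratio −0.11). The paralog thus stood above its parent gene in the control and below it in the mutant.

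The other named paralogs gave ratios in both directions. *Rps27l* was at 116.5 and 99.1 FPKM (log2 ratio −0.23), beside 866 and 1135 FPKM for *Rps27* (0.39). *Rpl7l1* was at 21.9 and 24.2 FPKM (0.14), beside 603 and 639 FPKM for *Rpl7* (0.08). *Rps4l* was at 13.1 and 21.4 FPKM (0.71), beside 630 and 618 FPKM for *Rps4x* (−0.03). Levels of near-identical copies are uncertain, since reads from one can be assigned to the other. The files also name 7 ribosomal protein pseudogenes, of which *Rps19-ps3* (46.9 and 45.8 FPKM), *Rps15a-ps6* (37.1 and 27.4 FPKM), *Rplp2-ps1* (30.2 and 35.8 FPKM) and *Rps15a-ps4* (24.0 and 23.6 FPKM) had rows of their own with an FPKM of at least 1. The pseudogene rows of *Rps15a* were thus near the level of *Rps15a* itself.

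The small and the large subunit each held a further gene that was lower past 1.5-fold. *Rps27a*, whose protein is released from ubiquitin and joins the head of the small subunit, was at 555 FPKM (control) and 367 FPKM (mutant, log2 ratio −0.60). *Rpl27* of the large subunit was at 372 and 231 FPKM (−0.69).

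Among the genes higher in the mutant, *Rpsa*, the small subunit protein also known as a laminin receptor, was nearest to a doubling. Its FPKM was 424 in control and 846 in mutant nerves, a log2 ratio of 0.995 (chr9:120036884-120041487 in the files). *Rps26*, which lies at the mRNA exit channel, was at 600 and 1085 FPKM (0.86), and *Rps15* of the small subunit head was at 655 and 1014 FPKM (0.63). In the large subunit, *Rpl28* was at 597 and 963 FPKM (0.69) and *Rpl17*, at the mouth of the exit tunnel, at 362 and 560 FPKM (0.63). With all rows brought to a common sum, none of these 5 genes was higher past 1.5-fold, and *Rpl17* and *Rps15* were slightly below 0.

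A little short of 1.5-fold were *Rpl41* (log2 ratio 0.58), *Rps28* (0.58), *Rpl27a* (263 and 392 FPKM, 0.58), *Rpl23a* (0.56) and *Rpl35* (547 and 807 FPKM, 0.56). On the other side, *Rpl13a*, which also takes part in translational silencing after interferon gamma, was at 703 and 487 FPKM (−0.53). *Rpl39*, a short protein in the wall of the exit tunnel, was at 848 and 662 FPKM (−0.36), and *Rpl9* at 471 and 406 FPKM (−0.21). In the small subunit, *Rps15a* (−0.21), *Rps21* (600 and 523 FPKM, −0.20) and *Rps19* (430 and 376 FPKM, −0.20), the gene most often affected in Diamond-Blackfan anaemia, followed *Rps27a* and *Rps27l*. Ratios thus ran without a gap up to the threshold, and a slightly lower one would have counted more genes as higher.

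Groups of ribosomal proteins with a shared place or role showed no common large change. The stalk, which recruits the elongation factors, had a median log2 ratio of 0.18 over 4 genes: *Rplp0* was at 461 and 617 FPKM (0.42), *Rplp1* at 1308 and 1541 (0.24), *Rplp2* at 506 and 553 (0.13) and *Rpl12*, at its base, at 467 and 466 (0.00). *Rpl5* (213 and 234 FPKM, 0.14) and *Rpl11* (661 and 620 FPKM, −0.09), which bind 5S rRNA and, outside the ribosome, the p53 regulator Mdm2, moved little. At the tunnel exit, 10 genes had a median of 0.39, from −0.36 for *Rpl39* to 0.63 for *Rpl17*, with 1 higher and 0 lower past 1.5-fold. By interval midpoints this median was 0.29, with *Rpl39* at 0.68 and *Rpl17* at 0.19. For 14 genes of the small subunit head the median was 0.19, with 1 higher (*Rps15*) and 1 lower (*Rps27a*). For 10 genes known from Diamond-Blackfan anaemia, an inherited failure of red cell formation, it was 0.16 (0.04 by interval midpoints), with 1 higher (*Rps26*). Past the same fold, 15.4% of all genes were higher and 8.52% lower.

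The FPKM of many ribosomal protein genes lay above the confidence interval that the same row gave for it. This held for 35 of the 81 genes in the control (43.2%) and 39 in the mutant (48.1%), against 9.35% and 11.2% of all genes that reached an FPKM of 1. It went with the kind of row. Of the rows with the gene symbol as their identifier, 35 of 45 in the control and 38 of 43 in the mutant had the FPKM above the interval. Of the rows with an identifier from the assembly, 0 of 36 and 1 of 38 did. In the rows above, the FPKM was between 1.11 and 2.56 times the midpoint of the interval in the control and between 1.06 and 2.58 times in the mutant, and the excess was larger for shorter mRNAs (Spearman rho −0.79 over 34 genes and −0.77 over 38 genes with a length). *Rps28*, with one of the shortest mRNAs, had an FPKM of 764 in the control where the interval ran from 282 to 314, and 1142 in the mutant where it ran from 426 to 459.

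Where a gene was above its interval in both libraries, the excess was alike and left the ratio in place. Over 24 such genes the ratio of FPKM to midpoint differed by at most 0.042 between the libraries, as for *Rps28* (2.56 and 2.58) and *Rpl41* (1.82 and 1.82). Another 31 genes were inside the interval in both. Over these 55 genes the median log2 ratio was 0.16 by FPKM and 0.17 by midpoints, 38 were above 0, and the sign was the same by both measures for each gene. Past 1.5-fold, 3 of the 55 (5.45%) were higher (*Rps4l*, *Rpl28* and *Rps15*) and 2 (3.64%) were lower (*Rpl22l1* and *Rps27a*). Of all 12920 genes with the same position in both libraries, 14.5% were higher and 8.46% lower past 1.5-fold, and 53.7% were above 0. Among the 55 genes the order of the subunits turned, with a median of 0.11 for 24 small and 0.20 for 31 large subunit genes.

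For the other 26 genes, the FPKM was above its interval in 1 library only, and the ratio depended on which value was read. The ratio by midpoints differed from that by FPKM by a median of 0.39 and by up to 1.04, and 10 of the 26 genes changed sign. In the 15 genes above the interval in the mutant only, the median was 0.14 by FPKM and −0.26 by midpoints. In the 11 genes above it in the control only, it was 0.03 by FPKM and 0.44 by midpoints. *Rpl39* went from −0.36 to 0.68, *Rpl35* from 0.56 to −0.26 and *Rps21* from −0.20 to −1.24. Of the genes past 1.5-fold, *Rpsa* (1.16 by midpoints), *Rps26* (1.72) and *Rpl27* (−1.14) had a larger ratio in the same direction, while *Rpl17* was at 0.19. In *Rpsa*, *Rps26* and *Rpl27* the FPKM was above its interval only in the library with the lower FPKM. Midpoints could therefore only widen these ratios and are no check on them. The intervals did not overlap between the libraries for 68 of the 81 genes (84%), beside 52.4% of all genes and 74.7% of the abundant genes. For 9 of the 81 genes their order was opposite to that of the FPKM.

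**Figure D3:**
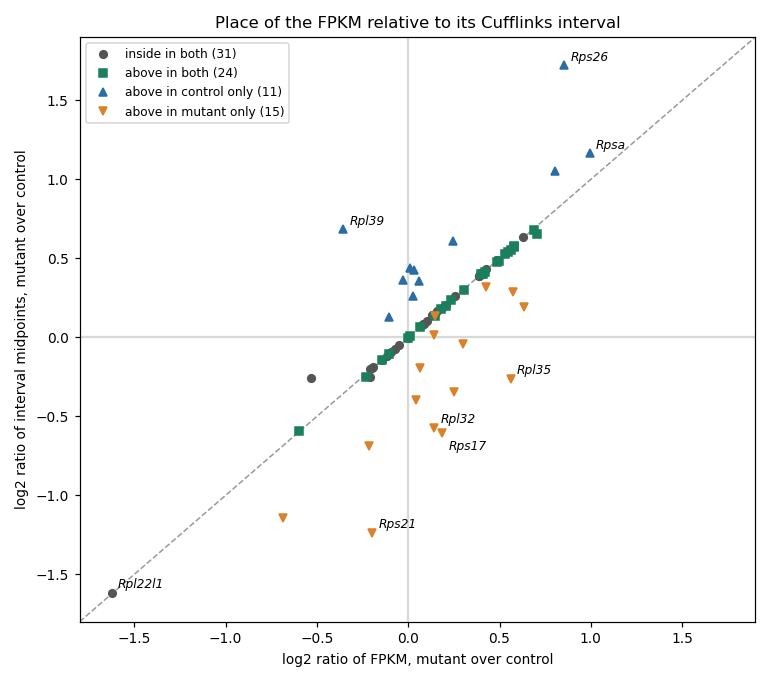
Log2 ratio of mutant over control by FPKM (x axis) and by midpoints of the Cufflinks intervals (y axis) for the 81 ribosomal protein genes, with marks by whether the FPKM was inside or above its interval in each library. The 55 genes alike in both libraries follow the dashed line of equal values, apart from *Rpl13a*, and most of the 26 others lie off it (by a median of 0.39), with *Rpl39* and *Rpl35* on the opposite side of 0.

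Small RNA genes were listed separately inside many ribosomal protein genes. Of the 84 genes, 23 overlapped or shared a row with 35 named snoRNAs or microRNAs, 33 of which had their own rows in both libraries, of 45 to 148 bases. These rows were unstable between the libraries, with 7 at 0 in both, 8 at 0 in the control only, 3 at 0 in the mutant only and 15 above 0 in both. Each small RNA with an FPKM above 0 (18 in the control, 23 in the mutant) lay above its own interval. *Snord58b*, in *Rpl17*, was listed at 0 in the control and at 778 FPKM in the mutant, where the upper bound of its interval was 3.19. *Snord34*, in *Rpl13a*, was listed at 0 and at 810 FPKM, and *Snord73a*, in *Rps3a1*, at 158 FPKM and at 0. *Snord100*, in *Rps12*, was at 790 and 219 FPKM, beside 895 and 983 FPKM for its host. By these values *Snord58b* and *Snord73a* went the same way as their hosts (*Rps3a1* at −0.07), while *Snord34* and *Snord100* went the other way. Upper bounds of the interval were 6.45 for *Snord34* in the mutant and 8.52 for *Snord100* in the control, so these directions are uncertain.

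The 23 genes with small RNA rows had a median log2 ratio of 0.06, with 3 higher (*Rpsa* and *Rpl17* among them) and 0 lower past 1.5-fold. The other 58 genes had a median of 0.18, with 4 higher and 3 lower. Of all genes compared, 15.4% were higher and 8.52% lower past this fold. The counts are too small to show a difference between genes with and without small RNA rows. By interval midpoints, *Rpl17* (0.19) also fell short of 1.5-fold. Rows shared with another gene name concerned 6 genes, among them *Rpl13a* with *Mir5121* and *Snord33*, *Rpl26* with *Gm15772*, *Rpl30* with *Gm12191*, *Rpl34* with *Rpl34-ps1* and *Rps27* with *Rps27rt*. Rows with different ends in the libraries were found for 5 genes, among them *Rps9*, *Rps12* and *Rps19*. Of these, *Rps9* was at 598 and 803 FPKM (0.42, and 0.32 by midpoints). No ribosomal protein gene was split over several rows of the same symbol.

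The 21 genes with a tract within 2 bases of the start had a median log2 ratio of 0.15, and 39 genes with a promoter but no such tract had 0.14. The core letters CTTTGA (searched on both strands), bound by factors of the Tcf7l2 family, were in the promoters of *Rpl6*, *Rpl39*, *Rps3a1* and *Rpl10l*, which did not pass the filter, 4 of 63 (6.35%), against 18.2% of all promoters of this length. CACGTG, the E-box that Myc binds, was in 6 of 63 (9.52%) against 8.09%. These matches are letters in the reference and overlaps between them were not counted.

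Other genes of the translation machinery were read from lists chosen by function. Of the ribosomal proteins whose names fall outside the rule, *Fau* was at 526 and 580 FPKM (0.14), *Gnb2l1* at 309 and 348 (0.17) and *Rpl36al* at 181 and 177 (−0.04). For 9 elongation factors the median log2 ratio was 0.11, with *Eef1a1* at 2442 and 3050 FPKM (0.32) and *Eef1a2*, the form of neurons and muscle, alone past 1.5-fold (7.11 and 15.2 FPKM, 1.08). The 29 initiation factors had a median of −0.16, with 20 below 0, from *Eif5* (48.1 and 32.4 FPKM, −0.57) to *Eif4ebp1*, the repressor of cap binding (6.06 and 13.4 FPKM, 1.14). For 9 other mRNAs with a TOP tract the median was 0.11, from *Vim* (−0.20) to *Pabpc1* (0.37), and 0 were past 1.5-fold. Of all genes, 15.4% were higher and 8.52% lower past this fold. *Tpt1* of that list was listed at 0 in both libraries and was not compared. Its interval in the control was not at 0 (log2 ratio of interval midpoints −4.90), so the listed 0 does not show that the mRNA was absent.

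For 31 genes of ribosome biogenesis it was −0.07, with *Gar1* (5.84 and 16.8 FPKM) higher and *Gnl3* (17.4 and 11.0 FPKM) and *Rrs1* (14.2 FPKM and listed at 0) lower past 1.5-fold. For 9 regulators of ribosomal protein synthesis it was −0.02, from *Rps6kb1*, the kinase of Rps6 (9.42 and 6.75 FPKM, −0.48), to *Myc* (8.82 and 12.5 FPKM, 0.49). The target of that kinase, *Rps6*, was at 322 and 328 FPKM (0.03). For 77 mitochondrial ribosomal proteins, built into another ribosome, the median was 0.07, with *Mrpl39*, *Mrps34* and *Mrpl23* higher and *Mrpl15* (98.4 and 6.67 FPKM) lower past 1.5-fold. The 10 nonprotein hosts of snoRNAs, which also carry TOP tracts, had a median of −0.28, with 6 past 1.5-fold. *Gas5* (105 and 247 FPKM), *Snhg4* (3.06 and 34.2 FPKM) and *Snhg9* (8.86 and 33.1 FPKM) were higher past 1.5-fold, and *Snhg3* (31.0 and 19.9 FPKM), *Snhg6* (46.4 and 22.8 FPKM) and *Snhg12* (25.5 and 14.0 FPKM) were lower. Among all genes, 15.4% were higher and 8.52% lower past this fold. By interval midpoints *Snhg12* fell short of it (−0.86 by FPKM, −0.36 by midpoints), and *Snhg7* changed sign (−0.44 and 0.37).

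**Figure D4:**
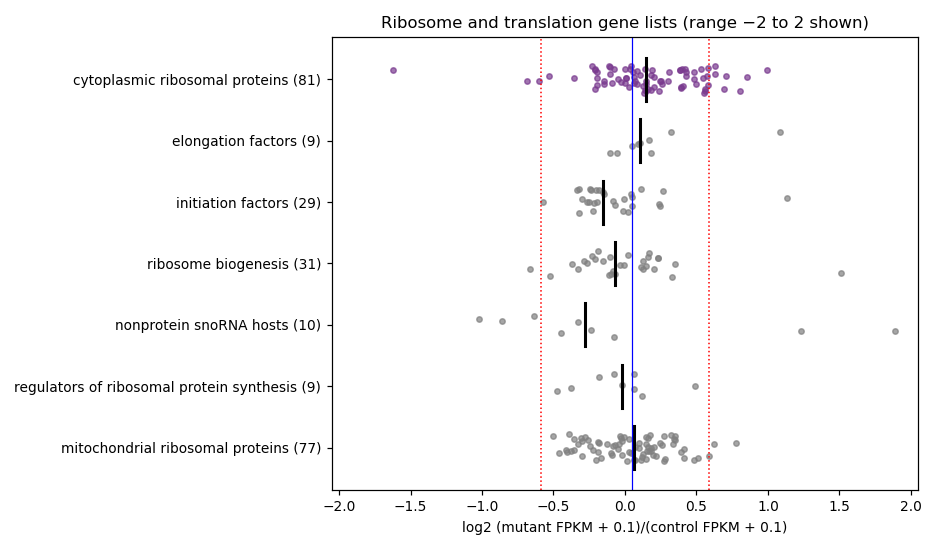
Log2 ratio of mutant over control FPKM for the 81 ribosomal protein genes and 6 lists of related genes, each point a gene and each black bar the median of its list, with the median of all genes as a vertical line and 1.5-fold as dotted lines. Ribosomal protein genes have a median of 0.15 as deposited (−0.52 with all rows brought to a common sum), initiation factors −0.16 and nonprotein snoRNA hosts −0.28, and 3 genes lie beyond the axis.

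Markers of the cell types of the nerve differed between the same libraries. Summed over 6 genes, oligodendrocyte markers were at 30309 (control) and 17461 FPKM (mutant). All 6 were lower and 4 were past 1.5-fold, beside 8.52% of all genes lower past this fold. The 3 precursor markers were at 281 and 197 FPKM, mostly *Gpr17* (235 and 156 FPKM). *Pdgfra* was at 35.9 and 33.6 FPKM (log2 ratio −0.09, but 1.40 by interval midpoints) and *Cspg4* at 9.93 and 8.06 FPKM (−0.30). The 4 markers of meningeal fibroblasts were at 762 and 1073 FPKM and the 4 of neurons at 20.6 and 30.9, with each gene higher. Each of the 5 red cell markers was also higher, and their sum was 252 and 631 FPKM. *Hba-a1* and *Hba-a2* had the same values (88.7 and 228 FPKM), and this sum holds both. In the other sets the genes went both ways. The 5 astrocyte markers were at 4832 and 5638 FPKM (4 higher, 1 lower), mostly *Gfap* (4059 and 4729 FPKM). The 5 of microglia were at 96.4 and 112 (4 higher, 1 lower). The 4 of endothelium were at 105.7 and 95.1 (2 higher, 2 lower) and the 4 of dividing cells at 36.0 and 36.5 (1 higher, 3 lower). No listed marker was at 0. Their part in the levels of the ribosomal protein genes was not tested.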

How the data were processed

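The authors aligned the reads with TopHat (default settings), and Cufflinks gave them FPKM values per library. Software versions are not given in the sources used here, and the submitters' processing notes name mm9. The deposited tables hold an FPKM, its interval and a status per row. Here, names merged by commas were split, FPKM was summed per symbol, and symbols found in both libraries with status OK that reached an FPKM of 1 in either library were compared as log2 ratios with a pseudocount of 0.1. The code was tested on simulated data. Genes, lists and thresholds were chosen with earlier results of these data known. The genes named were those past 1.5-fold, the 5 highest and 5 lowest ratios and the 5 highest and 3 lowest levels of each subunit, those with differing rows, stalk, 5S, ubiquitin fusion and paralog genes, and the extremes of each list. *Fau*, *Gnb2l1*, *Eef1a1*, *Rps6*, *Tpt1*, *Rpl35* and the small RNAs and pseudogenes were named after their values were seen. Some genes under this rule are left out here. Alternatives were other pseudocounts, filters, scalings, rows and folds. Interval midpoints, and the genes on the same side of their interval, were added after seeing the data. mRNA lengths came from GENCODE M21. Positions of the files were not joined with GRCm38. Python 3.11.15, numpy 2.4.6, pandas 2.3.3 and matplotlib 3.10.9 were used.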

Additional observations from a re-analysis of the deposited data

How the results depend on the processing

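Of 116 summary values recomputed under other settings, 104 stayed within 0.1 on the log2 scale or, for counts, within 1.5 times, and 12 did not. With all rows brought to a common sum of 1000000, the median log2 ratio was −0.52 for the ribosomal protein genes, −0.49 for the small and −0.52 for the large subunit, their summed FPKM had a ratio of −0.45, 0 genes were higher and 34 (42%) lower past 1.5-fold (4.51% and 52.1% of all genes), and *Rpl17* (−0.039) and *Rps15* (−0.040) changed sign. This scale includes the unnamed rows, whose sums differ between the libraries, and moves all genes alike apart from the pseudocount. The median log2 ratio of the ribosomal protein genes was above 0 under 15 of 16 settings. Some of these settings could not move it. The highest row per symbol, rows of any status and both stricter FPKM filters left each ribosomal protein gene and its value in place. They add to the counts of unchanged summary values and are no check on them. The median was 0.08 with only named rows brought to that sum of 1000000. Without genes with small RNA rows 4 were higher, among genes on the same side of their interval 3 were higher, by interval midpoints 6 were lower, and past 2-fold 0 were higher and 1 was lower. Of 70 values of single genes past 1.5-fold, 57 stayed past it and 11 fell short of it in the same direction. The difference of the subunit medians ran from −0.10 to 0.04 and was above 0 under 13 of 16 settings. No paired analysis was possible because there was 1 library per genotype.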
